A study of Caenorhabditis elegans with 4 samples.

Results

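The regions described here are peaks of RPC-1, the biggest polypeptide of RNA polymerase III, on the chromosome arms that carry a meiotic pairing centre, mapped by ChIP-seq in whole wild-type Caenorhabditis elegans larvae. Each chromosome was divided into 3 equal lengths, and a peak of the series-wide list is a member if its centre lies in the outer length that holds the pairing centre: the left one of chromosomes II and V and the right one of III and IV. In that numerical order, these arms are 5.09, 4.59, 5.83 and 6.97 Mb long, 22.5 Mb together. The rule found 309 peaks, 18.8% of the 1648 nuclear peaks of that list. They were set against the 375 peaks of the opposite arms, the outer lengths at the other ends of the same chromosomes. The rule used position only, so scores, widths and replicate overlap played no part in it, while chromosomes I and X do not enter. Density and spacing are themselves computed from peak positions. A peak list cannot show where a pairing centre lies, and no peak was matched to one.

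Of the study's 4 libraries, 2 are RPC-1 ChIP and 2 are input. All come from strain N2, genotype wild type, grown at 20 degrees Celsius to L3 larvae, males and hermaphrodites mixed. No mutant, transgene or treatment was used. The chromatin is that of whole animals, so germ cells are one part of the sample. Pairing centres act in germ cells that are in meiosis, and the share of such cells in these larvae was not measured.

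A pairing centre is a stretch near one end of each worm chromosome to which zinc-finger proteins of the ZIM and HIM family bind, and it lets homologous chromosomes find each other and pair in meiosis. RNA polymerase III makes tRNAs, 5S rRNA and further small RNAs, often from promoters inside the gene, and tRNA genes lie scattered over all worm chromosomes. The right part of chromosome IV also carries most genes of Piwi-interacting RNAs (piRNAs), which silence foreign sequences in the germ line and are transcribed by RNA polymerase II. In a gene table of assembly WBcel235, a later build than that of the peaks, chromosome IV carries 14714 of the 15363 nuclear piRNA genes. The same table gives 57 tRNA genes on II, 64 on III, 71 on IV and 78 on V. Coordinates of the builds were not compared, so no peak was assigned to a gene and no sequence of a peak is shown.

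The pairing-centre arms as a whole carried fewer RPC-1 peaks than the opposite arms, but the 4 chromosomes did not do the same. In the series-wide list the pairing-centre arms had 309 peaks (13.7 per Mb) and the opposite arms 375 (16.7 per Mb), a ratio of 0.824 (95% interval 0.707 to 0.960; exact binomial test, two-sided, adjusted p = 0.0322 over 5 measures). Replicate 1 had 316 peaks on the pairing-centre arms and 389 on the opposite arms, and replicate 2 had 268 and 352 in the same order. The density over the 2 libraries averaged 13.0 ± 1.51 peaks per Mb on the pairing-centre arms and 16.5 ± 1.16 on the opposite arms (SD, n = 2). The pooled difference depended on which chromosomes entered. Without V the ratio was 1.03, with 238 peaks on the pairing-centre arms and 232 on the opposite arms (exact binomial test, adjusted p = 0.818). It also failed to pass without III, at 0.864 (exact binomial test, adjusted p = 0.167), but passed without II (0.803) or IV (0.649). In the replicate lists, leaving V out gave 0.925 in replicate 1 and 0.914 in replicate 2. Taken over the 4 chromosomes as units, an exact sign-flip permutation test gave p = 0.500, where the smallest possible value is 0.125. All tests on single peaks treat them as independent, which close neighbours are not, and this lowers the p values.

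The left arm of V was the sparsest of the pairing-centre arms in the series-wide list. In the replicate lists the right arm of III was sparser. It had 11.5 peaks per Mb in replicate 1 and 8.49 in replicate 2, against 11.9 and 9.61 on the left arm of V. In the series-wide list the left arm of V carried 71 peaks (10.2 per Mb), against 143 (20.5 per Mb) on the right arm of V, a ratio of 0.497 (95% interval 0.368 to 0.664; exact binomial test, adjusted p = 1.94e-05 over 20 chromosome tests). In replicate 1 the counts were 83 on the left arm and 137 on the right, a ratio of 0.606. In replicate 2 they were 67 on the left arm and 132 on the right, a ratio of 0.508. Both libraries thus placed the left arm of V well below its opposite arm (exact binomial test, adjusted p = 0.00530 in replicate 1 and 7.60e-05 in replicate 2). Without groups of 10 or more peaks, of which the right arm holds 2, the series-wide ratio was 0.582 (exact binomial test, adjusted p = 0.00594).

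The right arm of III was also the sparser one in each library. It had 53 peaks in replicate 1, against 87 on the left arm, and 39 in replicate 2, against 78 on the left arm, ratios of 0.609 and 0.500 (exact binomial test, adjusted p = 0.0408 and 0.00317). In the series-wide list the right arm had 61 peaks and the left arm 88, a ratio of 0.693 that did not pass (exact binomial test, adjusted p = 0.109). The series-wide count includes a group of 10 weak peaks near the end of the right arm that neither replicate list holds. Without groups of 10 or more peaks the counts were 51 on the right arm and 88 on the left, a ratio of 0.580 (exact binomial test, adjusted p = 0.0107). This setting was added after the data were seen. On III it removes right-arm peaks alone and can only lower the ratio, so this pass is no separate support.

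Chromosome IV went the other way. Its right arm, the piRNA-rich one, was the densest of the pairing-centre arms, with 117 peaks (20.1 per Mb), against 79 (13.5 per Mb) on the left arm, a ratio of 1.48 (95% interval 1.10 to 2.00; exact binomial test, adjusted p = 0.0403). The excess was smaller in the single libraries. Replicate 1 had 105 peaks on the right arm and 91 on the left, and replicate 2 had 97 on the right arm and 84 on the left, a ratio of 1.15 in each (exact binomial test, adjusted p = 0.565 and 0.722). In the series-wide list the excess also failed to pass in the upper-scoring 50% of peaks (1.41, exact binomial test, adjusted p = 0.549), with peaks up to 1 kb apart merged (1.40, adjusted p = 0.201) and with groups counted as 1 (1.48, adjusted p = 0.108). What did hold in every list was the difference between chromosomes. The ratio of IV exceeded the joint ratio of II, III and V, which was 0.649 in the series-wide list, 0.708 in replicate 1 and 0.638 in replicate 2 (Fisher's exact test, adjusted p = 7.00e-06, 0.0163 and 0.00195 over 4 chromosomes). In the replicate lists II was close to IV, with ratios of 1.01 in replicate 1 and 1.12 in replicate 2. The low ratios there were those of III (0.609 and 0.500) and V (0.606 and 0.508), in replicates 1 and 2.

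On II the arms were close. The left arm had 60 peaks (11.8 per Mb) and the right arm 65 (12.8 per Mb), a ratio of 0.923 whose 95% interval ran from 0.639 to 1.33. The replicate lists had 75 peaks on the left arm and 74 on the right in replicate 1, and 65 on the left arm and 58 on the right in replicate 2. The interval includes both a clear shortage and a clear excess, so the data do not show that the arms of II are alike.

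**Figure D1:**
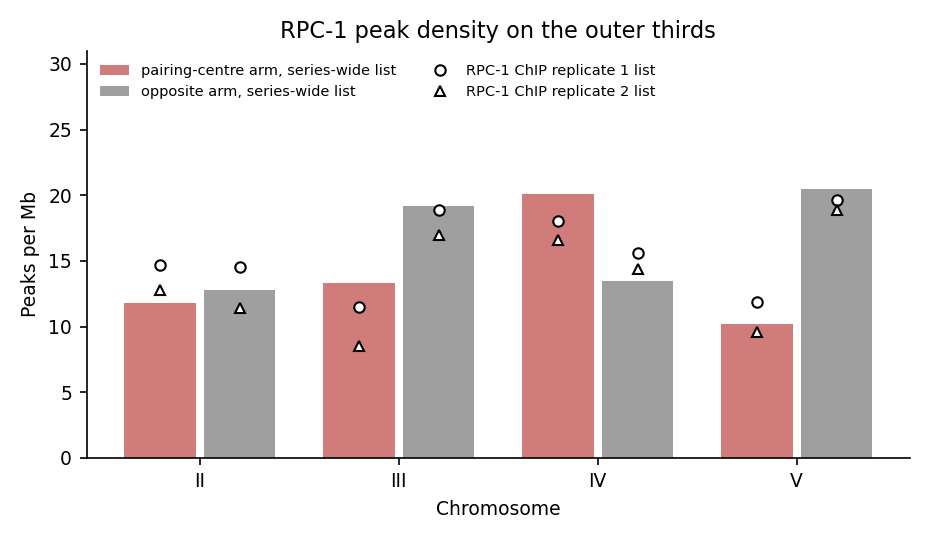
Peaks per Mb on the pairing-centre arm (red bars) and the opposite arm (grey bars) of chromosomes II, III, IV and V in the series-wide list, with the same density in the lists of replicate 1 (circles) and replicate 2 (triangles). The pairing-centre arm of V reached 10.2 peaks per Mb and its opposite arm 20.5, while on IV the pairing-centre arm reached 20.1 and its opposite arm 13.5.

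Within the arms, peaks were not evenly spread. On the left arm of II, the outermost Mb held 5 peaks, and the next Mb held 15 and then 17. On the right arm of III the order was reversed: the outermost Mb held 31 peaks, the next only 3, and the following ones 10 and 12. On the right arm of IV the bins of 1 Mb held 21, 25, 20, 14 and 25 peaks from the end inwards, so that no bin was nearly empty. On the left arm of V every bin of 1 Mb held between 7 and 13 peaks, and the innermost, slightly shorter bin held 15. Over the 4 chromosomes the outermost Mb held 65 peaks on the pairing-centre arms and 66 on the opposite arms. Of these, 23 on the pairing-centre arms and 5 on the opposite arms were not found in both replicates, and 16 of the 23 lay on III.

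**Figure D2:**
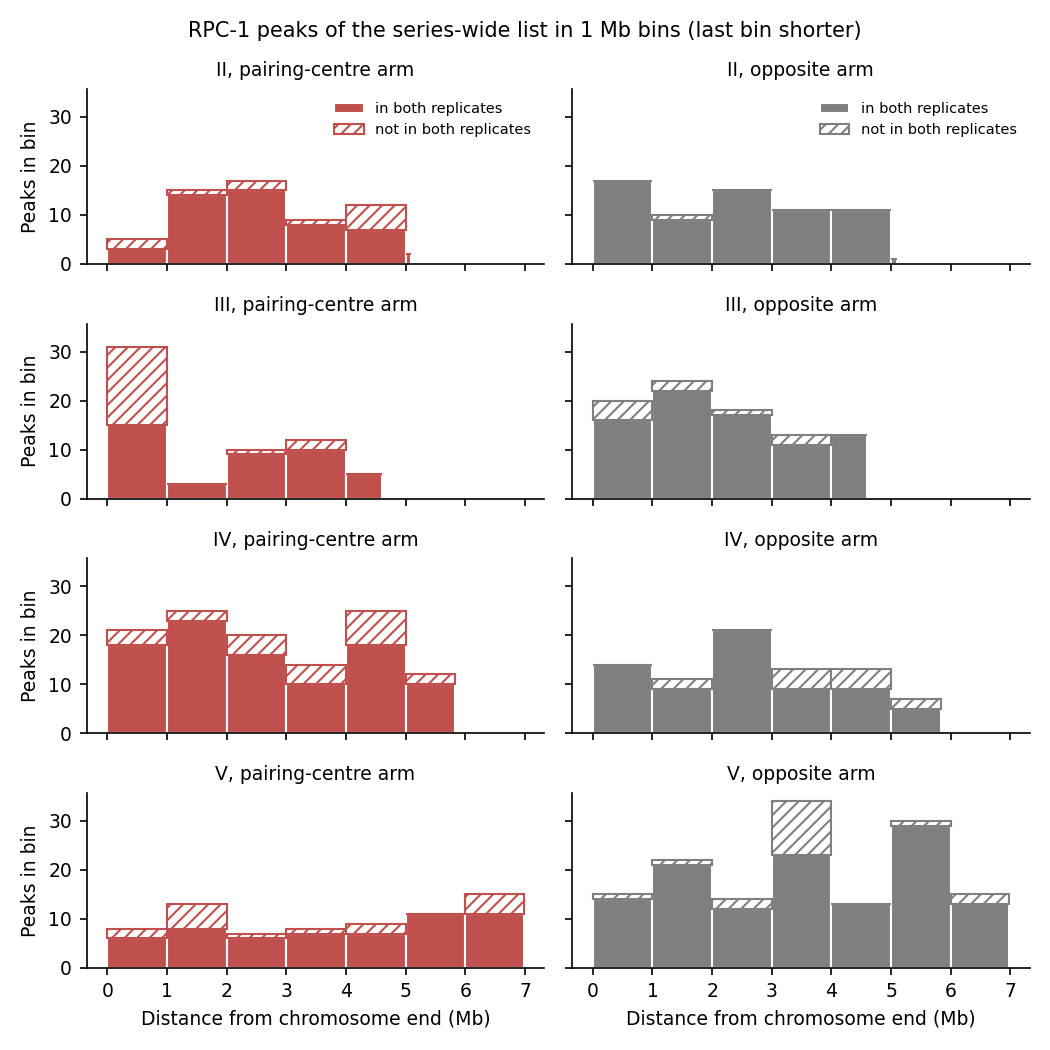
Series-wide peaks in bins of 1 Mb by distance from the chromosome end, on the pairing-centre arms (left column, red) and the opposite arms (right column, grey), with hatched parts for peaks not found in both replicates; the innermost bin of each arm is shorter than 1 Mb. The outermost bin of the pairing-centre arm of III holds 31 peaks, 16 of them not found in both replicates.

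Peaks of the pairing-centre arms were found in both replicate lists less often than those of the opposite arms. Of the 309 members, 242 (78.3%, 95% interval 73.3 to 82.8) overlapped a peak of both replicates by at least 1 bp, against 335 of 375 (89.3%, 85.8 to 92.3) on the opposite arms (Fisher's exact test, two-sided, odds ratio 0.431, adjusted p = 0.000433). Over all nuclear peaks the share was 84.8%. The pairing-centre arm had the lower share on each of the 4 chromosomes, with 81.7% on the left arm of II against 98.5% on its right arm, 68.9% on the right arm of III against 89.8% on its left arm, 81.2% on the right arm of IV against 84.8% on its left arm, and 78.9% on the left arm of V against 87.4% on its right arm. Only the differences on II and III passed within a chromosome (Fisher's exact test, adjusted p = 0.0157 and 0.0158; 0.857 on IV and 0.279 on V). Without groups of 10 or more peaks the share on III was 82.4% on the right arm and 89.8% on the left and no longer passed (Fisher's exact test, adjusted p = 0.535), while on V it was 78.9% on the left arm and 94.3% on the right and passed (Fisher's exact test, adjusted p = 0.0107). This setting was added after the data were seen. On V it removes right-arm peaks alone, among them a group of 11 with no peak in both lists, so this pass is no separate support. The exact sign-flip permutation test over the 4 chromosomes gave p = 0.125, the smallest it can give.

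The missing overlap had several forms. Of the 67 members not found in both lists, 8 overlapped a peak of replicate 1 only, 32 a peak of replicate 2 only, and 27 a peak of neither. On the opposite arms the 40 such peaks divided into 9, 21 and 10. On IV, 17 of the 22 members not found in both were in replicate 2 only. On III, 15 of 19 were in neither list. Replicate 2 peaks were wider, with a nuclear median of 1257 bp against 482 bp in replicate 1. A wide peak can overlap several members at once, and how far this enters these counts was not tested.

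The difference lay among the weak peaks. When the series-wide list was divided by score into 4 bins of 412 peaks, all 69 members of bin 3 and all 61 of the highest bin were found in both replicates, as were all 111 and 73 such peaks of the opposite arms. The absence of an unshared peak among the 69 and 61 members allows a share of up to 4.35% and 4.92%, by the limit that 3 counts would give. In bin 2, 82 of 97 members (84.5%, 75.8 to 91.1) were found in both, against 89 of 94 (94.7%, 88.0 to 98.3) on the opposite arms. In the lowest bin, with scores up to 14.7, 30 of 82 members (36.6%, 26.2 to 48.0) were found in both, against 62 of 97 (63.9%, 53.5 to 73.4) on the opposite arms (Fisher's exact test, adjusted p = 0.00158). The test in this bin was added after the data were seen, and no single chromosome passed in it. The 82 members include the group of 10 close neighbours on III that neither list holds. The lowest bin made up a like part of each, 26.5% of the members and 25.9% of the peaks of the opposite arms. Over all nuclear peaks the share was 49.8% in the lowest bin, 89.6% in bin 2 and 100% in each upper bin. The upper bins thus had no room for a difference between arms. In the lower bins the members lay below the share of all peaks and the opposite arms above it.

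When the replicate lists were compared with each other directly, the difference was smaller and did not pass over the 4 chromosomes. Of the 268 replicate 2 peaks on the pairing-centre arms, 225 (84.0%, 79.0 to 88.1) overlapped a replicate 1 peak, against 293 of 352 (83.2%, 78.9 to 87.0) on the opposite arms (Fisher's exact test, p = 0.828). Of the 316 replicate 1 peaks on the pairing-centre arms, 256 (81.0%, 76.2 to 85.2) overlapped a replicate 2 peak, against 337 of 389 (86.6%, 82.8 to 89.9) on the opposite arms (Fisher's exact test, p = 0.0489, adjusted p = 0.0911). These comparisons do not use the series-wide list. By chromosome the direct comparison was mixed. On II, 50 of 65 replicate 2 peaks of the left arm (76.9%) were found in replicate 1, against 57 of 58 (98.3%) on the right arm (Fisher's exact test, adjusted p = 0.00124 over 4 chromosomes). On V, 62 of 83 replicate 1 peaks of the left arm (74.7%) were found in replicate 2, against 123 of 137 (89.8%) on the right arm (Fisher's exact test, adjusted p = 0.0166). On IV the shares ran the other way, with 89.5% of the replicate 1 peaks of the right arm found in replicate 2 and 80.2% of those of the left arm (Fisher's exact test, adjusted p = 0.146). Among replicate 1 peaks the shares were 76.0% on the left arm of II and 85.1% on its right arm (Fisher's exact test, adjusted p = 0.214). On III they were 81.1% on the right arm and 89.7% on the left. Among replicate 2 peaks the pairing-centre arm had the higher share on III (94.9% against 82.1%), IV (83.5% against 79.8%) and V (85.1% against 79.5%). No such difference on III, IV or V passed.

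**Figure D3:**
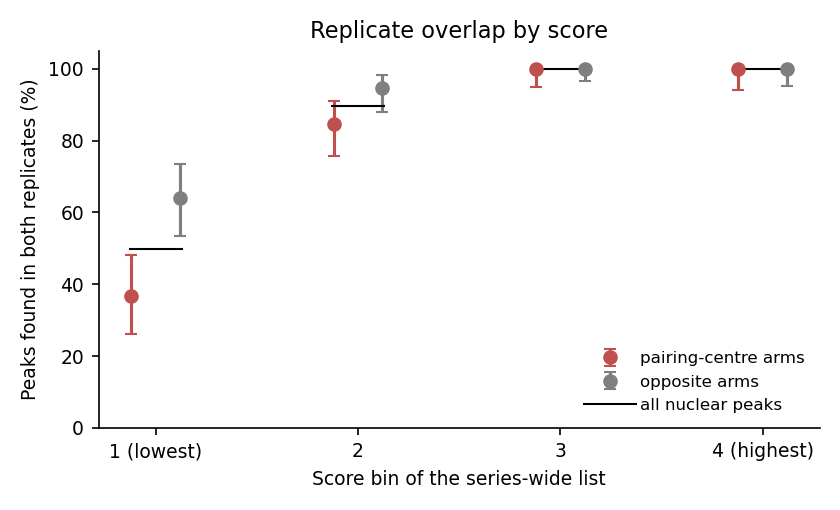
Share of series-wide peaks that overlap a peak of both replicates, by score bin of the list, on the pairing-centre arms (red) and the opposite arms (grey), with exact 95% intervals, and for all nuclear peaks (black lines). In the lowest bin the share was 36.6% on the pairing-centre arms, 63.9% on the opposite arms and 49.8% over all nuclear peaks. In the upper 2 bins it was 100% on both arms and over all nuclear peaks.

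A pair of places on these arms shows what such members look like. Near the right end of III, the series-wide list has 10 narrow peaks between 13585339 and 13598701 (WS220), a span of 13363 bp. Their scores lie between 3.08 and 6.7, in a list whose lowest nuclear score is 1.32 and whose median is 69.7, and their widths between 156 and 460 bp. Neither replicate list has a peak at any of them. The rest of that last Mb held 21 peaks, of which 15 were found in both replicates, with scores up to 164.49. The other place is on II, where 3 closely spaced peaks of 1076, 1302 and 1318 bp lie between 4641209 and 4645058, with scores of 25.86, 49.41 and 24.2. Replicate 2 has a single peak of 4482 bp over all 3, at 3100, a score that 594 peaks of that list share, and replicate 1 has none. The middle peak, at II 4642383 to 4643684, was the highest-scoring member of all 4 arms that was not found in both lists.

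**Figure D4:**
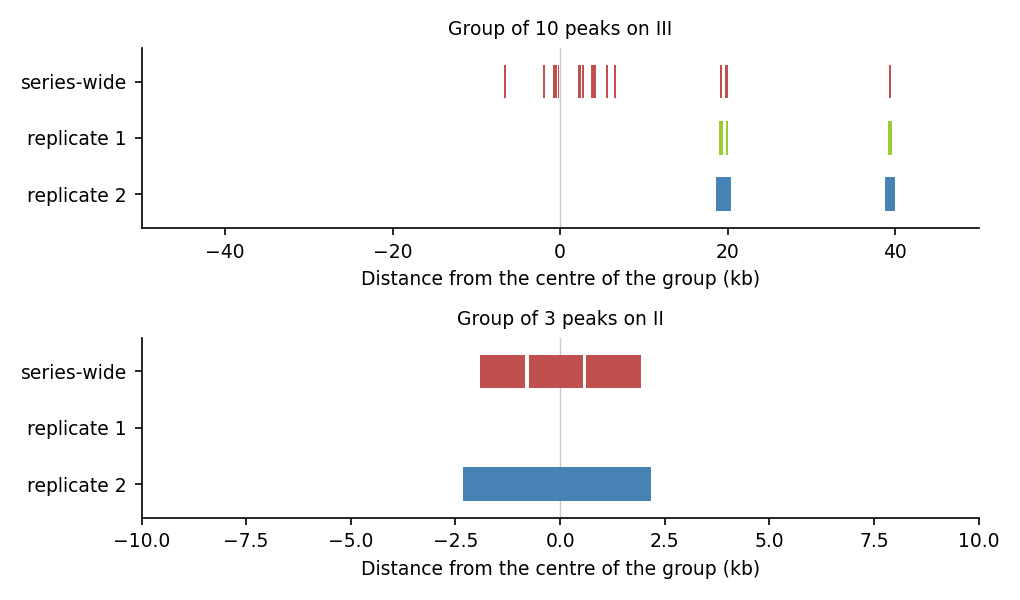
Peaks of the series-wide list and of both replicate lists by distance in kb from the centre of the group of 10 peaks on the right arm of III (upper panel) and of the group of 3 peaks on the left arm of II (lower panel), each bar spanning 1 peak from start to end. The 10 peaks on III have no counterpart in a replicate list, whereas the peaks some 20 and 40 kb to the right have one in both, and the 3 peaks on II lie under 1 peak of replicate 2.

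On the other chromosomes, the best-scoring member missing from a list was weaker. On III it lay at 10759009 to 10759218 and scored 23.49, with a replicate 1 score of 257.97 and no replicate 2 peak. On IV it lay at 15895723 to 15896188 and scored 27.98, with a replicate 2 score of 141.15 and no replicate 1 peak. On V it lay at 1637848 to 1638883 and scored 24.45, with a replicate 2 score of 978.47 and no replicate 1 peak. The list without the peak was that of replicate 1 on II, IV and V, and that of replicate 2 on III.

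Scores are those the authors' caller gave each peak, on a scale that is not stated, and were used to rank peaks within one list. Members scored between 1.42 and 173.7, with a median of 51.3 (quartiles 13.6 and 114.2), against a median of 64.6 (quartiles 14.0 and 115.7) on the opposite arms. Of the members, 130 (42.1%, 36.5 to 47.8) scored at or above the median of all nuclear peaks, against 184 (49.1%, 43.9 to 54.2) on the opposite arms and 50.0% of all peaks by construction. This difference did not pass (Fisher's exact test, adjusted p = 0.0953), and its direction was not kept in replicate 2, where 44.0% of peaks on the pairing-centre arms and 42.3% on the opposite arms reached that list's median. The medians on the pairing-centre arms were 61.7 on II, 44.9 on III, 54.1 on IV and 54.0 on V, against 80.8, 81.9, 58.9 and 52.3 on the opposite arms. The median was lower on the pairing-centre arm of II, III and IV and slightly higher on that of V. No chromosome passed (Fisher's exact test, adjusted p from 0.129 to 0.857).

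**Figure D5:**
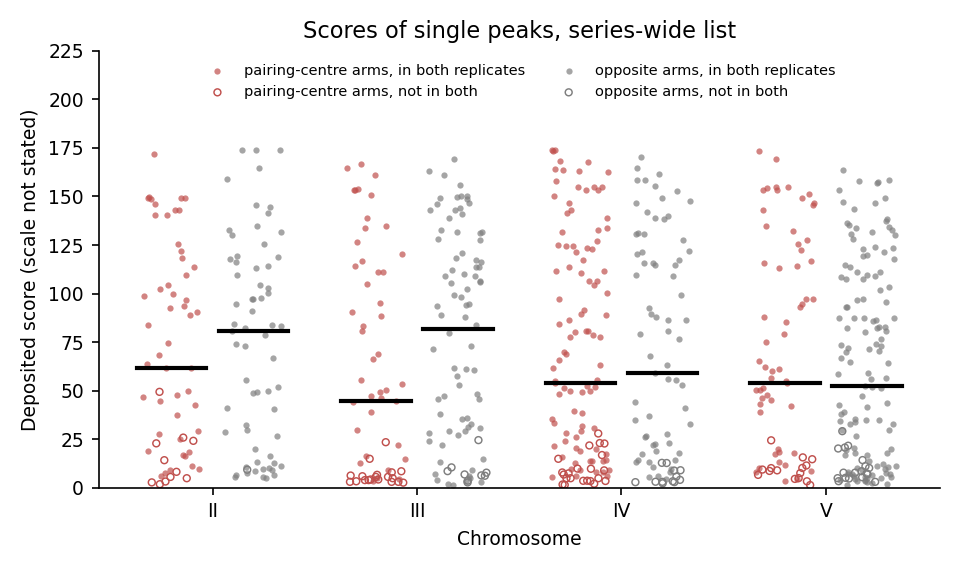
Deposited score of each series-wide peak on the pairing-centre arm (red, left of each pair) and the opposite arm (grey, right) of chromosomes II to V; filled points are peaks found in both replicates, open points the others, and black bars are medians. The median on III is 44.9 on the pairing-centre arm and 81.9 on the opposite arm, and open points lie below 50 throughout.

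Strong RPC-1 peaks were present on each pairing-centre arm, and the 3 best of each are given by position (WS220). On IV the peaks at 15932980 to 15933521 and 14013606 to 14014025 reached the highest score of the list, 173.72, as 3 peaks of the opposite arms did, all 3 of them on II. In replicate 1 they scored 3100 and 3022.37, and in replicate 2 both scored 3100. The peak at IV 14837999 to 14838549 followed with 173.65, and with 3100 in both replicates. They were 542, 420 and 551 bp wide, each above the upper quartile of members, and present in both lists.

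On V the best member, at 2673820 to 2674218, scored 173.65, with 2672.28 in replicate 1. The next, at 5575999 to 5576436, scored 169.17, with 3039.13 in replicate 1. The peak at 706424 to 706768 scored 155.08, with 1853.97 in replicate 1. In replicate 2 all 3 had the tied score of 3100, so that list does not order them, while replicate 1 put the second above the first.

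On II the best member, at 5057232 to 5057703, scored 171.73, with 3178.89 in replicate 1, and it is also the member closest to the inner boundary of its arm. The peaks at 1519831 to 1520207 and 977179 to 977511 scored 149.88 and 149.44, with 2297.99 and 1639.37 in replicate 1. On III the peaks at 11066564 to 11067088, 13411084 to 13411479 and 9447545 to 9447918 scored 166.62, 164.49 and 161.02. Their replicate 1 scores were 3100, 2277.23 and 2404.68. All 6 had 3100 in replicate 2.

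At the inner boundary, the nearest peak outside each arm scored above the list median of 69.7. The nearest member inside did so on II and III only. On II the nearest peak outside the arm, at 5104969 to 5105478, scored 107.09. On III the nearest member inside, at 9445644 to 9446016, scored 116.63 and the nearest peak outside, at 9110757 to 9111131, scored 157.47. On IV these were 52.44 at 11837818 to 11838217 inside and 109.12 at 11549613 to 11550083 outside. On V they were 14.73 at 6942284 to 6942778 inside and 112.96 at 7069606 to 7069941 outside. Apart from the member on V, which replicate 1 lacks, all of these were found in both replicates.

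Across the 2 libraries, replicate peaks that overlapped in mutually exclusive pairs ranked alike. The pairs were drawn from the replicate lists, so peaks with no partner or with several do not enter. Scores in the 197 mutually exclusive overlapping pairs on the pairing-centre arms gave a Spearman's rho of 0.912 and a Pearson's r of 0.885, against 0.916 and 0.884 over 255 pairs on the opposite arms. These coefficients describe peaks that share 2 libraries and their caller runs. In the pairs on the pairing-centre arms, 15 peaks of replicate 1 and 73 of replicate 2 reached the tied score of 3100. Of the 309 members, 250 overlapped a replicate 1 peak, with a median score of 1144, and 274 overlapped a replicate 2 peak, with a median of 2451. On the opposite arms 344 of 375 peaks overlapped replicate 1, with a median of 1196, and 356 overlapped replicate 2, with a median of 2672.

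Peak width did not separate the arms. Members were between 146 and 2833 bp wide with a median of 314 bp (quartiles 257 and 404), against a median of 322 bp (quartiles 266 and 405) on the opposite arms. Of the members, 43.4% (37.8 to 49.1) were at least as wide as the median nuclear peak, against 41.9% (36.8 to 47.0) on the opposite arms and 50.1% of all nuclear peaks (Fisher's exact test, adjusted p = 0.698). The direction was not stable: in replicate 1 the shares were 41.1% on the pairing-centre arms and 49.1% on the opposite arms, and in replicate 2 they were 43.7% and 45.2% in the same order. Members covered 111.5 kb in all, and the peaks of the opposite arms 144.0 kb.

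The widest members were not strong ones. On V the widest, at 4333166 to 4335998 (2833 bp), scored 8.7 and lay under a replicate 2 peak of 3953 bp, with none in replicate 1. On IV the widest, at 12730438 to 12732657 (2220 bp), scored 29.17; its best replicate 1 peak was 187 bp wide with a score of 59.43, and its replicate 2 peak 2189 bp wide with a score of 369.91. On III the widest, at 10226040 to 10227600 (1561 bp), scored 14.95 and was covered in replicate 2 only. On II the widest was the rightmost of the closely spaced peaks described above, with 1318 bp. On all 4 arms the widest member scored below the median of the list and overlapped a replicate 2 peak of more than 2 kb.

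Pooled over the 4 chromosomes, members had fewer close neighbours than the peaks of the opposite arms, but the difference did not pass and the chromosomes were mixed. The pooled median distance from a member's centre to the nearest other centre was 6705 bp, against 3579 bp on the opposite arms. Spacing comes from the same centres as the density, which was lower on the pairing-centre arms, and was not separated from it. Of the members, 138 (44.7%, 39.0 to 50.4) had a neighbour within 5 kb, against 196 (52.3%, 47.1 to 57.4) on the opposite arms and 49.6% of all nuclear peaks. This did not pass in the series-wide list (Fisher's exact test, adjusted p = 0.0911), and with neighbours within 2 kb the shares were 36.9% and 38.1% in the same order. It passed in replicate 2, with 21.3% on the pairing-centre arms and 33.0% on the opposite arms (Fisher's exact test, adjusted p = 0.00305), and not in replicate 1, with 41.1% and 45.2% in the same order (Fisher's exact test, p = 0.285). The largest gap was on II, where 20 of 60 peaks of the left arm (33.3%) and 36 of 65 of the right arm (55.4%) had such a neighbour (Fisher's exact test, p = 0.0190, adjusted p = 0.0761). On III the shares were 55.7% on both arms, and this count includes the 10 weak peaks near the right end. On IV they were 46.2% on the right arm and 46.8% on the left, and the median distance was smaller on the right arm, 6489 bp against 13071 bp on the left. On V they were 42.3% on the left arm and 51.7% on the right, and 42.3% and 43.4% in the same order without groups of 10 or more peaks.

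When peaks were joined into groups wherever successive centres lay within 5 kb, the members formed 225 groups, of which 171 were single peaks, 37 were pairs and 17 held 3 or more. The 375 peaks of the opposite arms formed 250 groups, of which 179 were single, 47 were pairs and 24 held 3 or more. The groups of 3 or more contained 64 members, against 102 peaks of the opposite arms. Counted in groups, the pairing-centre arms had 225 and the opposite arms 250, a ratio of 0.900 that did not pass (exact binomial test, adjusted p = 0.338).

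The largest groups differed in kind between the arms. On IV it was a run of 6 peaks between 13435653 and 13443887, with scores from 5.44 to 24.3, all found in both replicates. The same arm had groups of 4 at 16398082 to 16401077, with scores from 117.11 to 163.55, and at 16382156 to 16389416, with scores from 6.09 to 162.99, again in both replicates throughout. On V the largest group by the summed score was a set of 3 at 5586856 to 5592191, with scores of 122.43, 97.32 and 88.18. On II it was a set of 3 at 1813331 to 1815363, with scores of 37.3, 96.47 and 29.36, all under 1 replicate 2 peak of 2718 bp. On III the largest group, the 10 peaks described above, was in neither library. On II and V, sets of 3 tied in size, and the summed score chose between them. The set of 3 not chosen on V, at 1712620 to 1714274, was also in neither library. That on II, at 4641209 to 4645058, was in replicate 2 only.

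Beside the rest of the genome, the median score of the pairing-centre arms was low, and only that of chromosome I was lower. The medians were 51.3 on the pairing-centre arms, 49.4 on chromosome I, 64.6 on the opposite arms, 75.5 in the centres of II to V and 95.1 on X. The share of peaks found in both replicates was 78.3% on the pairing-centre arms, 77.9% on I, 82.7% in the centres and 90.1% on X. The centres of II to V, of the same length as the arms, held 272 peaks. The pairing-centre arms, with 309, thus lay between the centres and the opposite arms, with 375. These values are given as a description, with no test.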

How the data were processed

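RPC-1 ChIP-seq of 2 ChIP and 2 input libraries was analysed from 3 peak lists, 1 per ChIP library and 1 for the series, grouped by sample title, and no input values were used. Per the file headers, coordinates are WormBase WS220, and the lists name MACS (replicates) and MACS v2 (series); BWA and ce10 come from the submitters' processing notes. Threshold, filters, use of input and pooling were not given in the sources used here. Each deposited score is the authors' own caller value per peak; read depth is unknown, so intervals cover counting of peaks only. Nothing says that the ChIP libraries came from separate cultures, so their spread may be technical.

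Computed here (Python 3.11.15, scipy 1.17.1, pandas 2.3.3, matplotlib 3.10.9): exact binomial tests of counts, Fisher's exact tests of shares, exact sign-flip tests over 4 chromosomes, Clopper-Pearson 95% intervals, and Benjamini-Hochberg adjustment over 5 measures, or over 20 chromosome tests. For density, score, width and spacing in a replicate list or among the stronger peaks, adjustment was over 4 measures or 16 chromosome tests, and overlap between the replicate lists by chromosome over 4. Functions were tested on simulated data. On each chromosome the text names the 3 best-scoring members, the widest, the largest group, the best member not in both replicates, and the peaks beside the inner boundary. Members, measures and tests were chosen with earlier results of these data known. Settings tried included replicate lists, stricter scores, merging, narrower arms (the outer 25%) and overlap rules.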

Additional observations from a re-analysis of the deposited data

Results flagged for a closer look

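The ratio of peaks on the pairing-centre arm to those on the opposite arm differed between chromosomes, by Fisher's exact test of 1 chromosome against the other 3. On IV it was 1.48 (117 peaks on the right arm and 79 on the left), against 0.649 on II, III and V together (Fisher's exact test, adjusted p = 7.00e-06). On V it was 0.497 (71 peaks on the left arm and 143 on the right), against 1.03 on II, III and IV together (Fisher's exact test, adjusted p = 4.53e-05). Both differences also passed in replicate 1 (Fisher's exact test, adjusted p = 0.0163 and 0.0227) and in replicate 2 (Fisher's exact test, adjusted p = 0.00195 each), with smaller ratios on IV, 1.15 in each. In replicate 2 the ratio of II also passed, 1.12 against 0.690 on the other 3 (Fisher's exact test, adjusted p = 0.0192). So did that of III, 0.500 against 0.836 (Fisher's exact test, adjusted p = 0.0192). How far the 3 lists share reads is not known, and neighbouring peaks were taken as independent.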

How the results depend on the processing

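Of 76 alternative values for the pooled differences and the counts of chromosomes that passed, from the settings listed at the start, 53 kept their direction and side of the 0.05 threshold, or a like count, as did 12 of 22 from settings added after the data were seen. Of the values for the 4 single-chromosome calls (density on IV and V, support on II and III), 9 of 20 and 6 of 16 did so. Settings reuse the same peaks, so these are no independent checks, and unless stated the cause was not tested. The density ratio of 0.824 no longer passed when peaks up to 1 kb apart were merged (0.855), on the outer 25% (0.843), without III (0.864), in groups (0.900) or without groups of 10 or more peaks (0.845), and it reversed without V (1.03); with 1 ChIP list left out it was 0.761 to 0.812. The score difference of -7.00 points was -6.50 to 1.70 with 1 list left out and 0.274 for the upper 25%. The width difference of 1.50 points reversed to -7.96 and -1.51 with 1 list left out, -5.30 merged, -1.26 on the outer 25%, -2.36 without V and -1.71 for the upper 25%. The spacing difference of -7.61 points passed when merged (-10.2) and on the outer 25% (-12.5), was -11.7 to -4.10 with 1 list left out, and shrank within 2 kb (-1.24), within 20 kb (-4.53) and without II (-4.22). The support difference of -11.0 points did not pass with centres within 200 bp (-3.94), for replicate 1 peaks found in replicate 2 (-5.62) or the reverse (0.717, and 12.8 on III alone), and was 0 at or above the median score, where every peak of both arms is shared. Chromosomes that passed for density were 1 instead of 2 when merged or grouped, the call lost being IV, which also failed at or above the median score and in each replicate list, while V passed throughout; for score 1 instead of 0 on the outer 25%; for support, instead of 2, they were 0 at or above the median score, merged, grouped, within 200 bp or in the lowest score bin, and 1 on the outer 25%, below the median or between the replicate lists, where fewer peaks enter some of these tests. No paired analysis was possible because peak lists exist here for ChIP libraries alone, so the replicate numbers that input and ChIP share could not enter a fit. How far depth limits the calling of weak peaks is unknown.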

Other observations

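The replicate lists also hold peaks on the pairing-centre arms that the series-wide list lacks. In replicate 1 these were 70 of 316 peaks (22.2%, 95% interval 17.7 to 27.1), against 63 of 389 (16.2%, 12.7 to 20.2) on the opposite arms (Fisher's exact test, p = 0.0527). In replicate 2 they were 37 of 268 (13.8%, 9.91 to 18.5), against 63 of 352 (17.9%, 14.0 to 22.3) on the opposite arms (Fisher's exact test, p = 0.187). The libraries thus lean opposite ways, and neither difference passed. These peaks were weak: on the pairing-centre arms their median score was 70.8 in replicate 1 and 113.5 in replicate 2. Of the 70 and 37, 18 and 16 were nevertheless found in the other replicate.

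A pair of further runs of 3 weak members were in neither replicate list. One lay on the right arm of III at 13078160 to 13083909, with scores from 3.08 to 4.29, and the other on the left arm of V at 1712620 to 1714274, with scores from 3.37 to 11.51. On the right arm of IV, 3 members between 13360554 and 13361591, with scores from 1.51 to 3.63, were in replicate 2 only. The opposite arms also had such runs. On the right arm of V, 11 peaks lay between 17384125 and 17394370, with scores from 4.98 to 29.17, 8 of them in replicate 2 only and 3 in neither. On the left arm of IV, 4 peaks lay between 3206940 and 3209272, all in replicate 2 only.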
